A study of Caenorhabditis elegans with 15 samples.

Results

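The insulin/IGF signaling (IIS) genes described here are the receptor, adaptor, kinase, phosphatase and forkhead factor genes at the center of the pathway in *C. elegans*: *daf-2*, *ist-1*, *age-1*, *aap-1*, *pdk-1*, *akt-1*, *akt-2*, *sgk-1*, *daf-18* and *daf-16*. They were taken by name, by matching the WormBase gene identifier to its public name. The rule uses no measured value, but earlier results of these data were known when the genes, pathway lists and ratios were chosen. All 10 were among the 20483 genes in the tables, and all 10 were among the 11648 genes tested, the ones that reached 1 FPKM in 5 or more of the 15 libraries. FPKM are fragments scaled to transcript length and to the mapped total, so levels of different genes can be set side by side per length.

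The study sequenced mRNA of whole nematodes of 3 strains, with 5 libraries each, to ask how reduced IIS acts in animals with a defect of mitochondrial complex I. The strains were wild type (wt), *gas-1* mutants that carry *gas-1(fc21)*, an allele of a gene for a complex I subunit, and *age-1; gas-1* mutants that carry *age-1(hx546)* in addition to the same *gas-1* allele and are called double mutants. All were grown from hypochlorite-treated populations at 20 °C on NGM plates with OP50 bacteria and were labelled L4, the last larval stage. The paper refers its sequencing RNA to an RNA extraction method that starts from young adults, so the sources differ on the stage. Both alleles are point mutations, so transcript levels of *age-1* and *gas-1* do not check the labels. Both mutant strains carry *gas-1(fc21)*, and no *age-1* single mutant is among the libraries analysed here, so *age-1(hx546)* was seen only on top of *gas-1(fc21)*. The paper lists a single strain for each genotype, so an effect of an allele cannot be told apart from other differences between the strains.

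In this pathway insulin-like peptides bind the receptor DAF-2, which activates the phosphoinositide 3-kinase made of the catalytic subunit AGE-1 and the adaptor AAP-1. The lipid it makes recruits PDK-1, which switches on AKT-1, AKT-2 and SGK-1, while the phosphatase DAF-18 removes the lipid. The active kinases phosphorylate the forkhead factor DAF-16 and hold it in the cytosol, and reduced signaling lets it enter the nucleus. These steps act on lipids and proteins, which FPKM do not measure.

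The genes lie on 6 chromosomes of WBcel235, the assembly of the Ensembl 115 annotation to which identifiers were matched. *ist-1* (X:7126648-7139666), *pdk-1* (X:1321344-1327986), *akt-2* (X:14147700-14152070) and *sgk-1* (X:16254842-16262122) are on X, as is *gas-1*. The other genes are *daf-16* (I:10750498-10776703), *aap-1* (I:5107843-5110183), *age-1* (II:11519328-11527054), *daf-2* (III:2994514-3040846), *daf-18* (IV:420011-425177) and *akt-1* (V:10248905-10252845). The annotation gives 11 transcripts for *daf-16* and 7 for *daf-2*, which FPKM per gene do not separate. Exons of *age-1* share 192 bases with the opposite-strand gene *B0334.10*, and exons of *aap-1* share 136 bases with *Y110A7A.21*. The use of strand in counting is not given in the sources used here, and without it reads from these stretches cannot be assigned to 1 strand.

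Across all genes, FPKM sums were 658126 to 702623 per library. A set of 4 libraries stood apart by low sperm transcripts: wt replicate 3, *gas-1* replicate 2 and double mutant replicates 2 and 5 had a median of -1.67 to -0.35 over 13 sperm markers in log2(FPKM + 0.1), compared to 1.12 to 2.27 in the other libraries. They differed in more than sperm. In the same order, they had the highest summed oocyte and eggshell markers of their strains (7527, 6164, 5615 and 5687 FPKM). Their summed body wall muscle markers were the lowest (988, 1385, 1440 and 1457 FPKM). Over all tested genes, wt replicate 3 differed from the other wt libraries with an SD of 0.71 to 0.98 in log2, compared to 0.21 to 0.39 among those. The adult cuticle collagen *col-19* averaged 811 FPKM in wt, 762 in *gas-1* mutants and 732 in double mutants. The yolk protein gene *vit-2* averaged 34079, 55024 and 87212 FPKM. The label names a larval stage, whereas the paper's RNA method names young adults. The other collagen genes of the hypodermal list, *dpy-7*, *rol-6* and *bli-1*, were higher in both mutants than in wt. They reached 1 FPKM in 5 or more libraries only with the mutant libraries. *gas-1* mRNA stood at a mean of 115 FPKM in wt, 219.5 in *gas-1* mutants and 220.6 in double mutants. Across the 11648 genes, the median log2 change was 0.14 in each mutant compared to wt and -0.02 between the mutants, a shift that depends on the genes counted. Among genes that reached 5 FPKM the medians compared to wt were 0.01 in *gas-1* mutants and -0.04 in double mutants. The relative depth of the libraries could be judged only roughly from the spacing of low values, and read totals are unknown.

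The 10 transcripts covered a wide span of levels, and *daf-18* was by far the most abundant. In wt it averaged 351 FPKM ± 37.3 (SD, n = 5), above 97.0% of tested genes when ranked on the mean of all 15 libraries. *daf-16* followed at 92.7 ± 2.89 FPKM, *daf-2* at 70.6 ± 7.22 and *akt-1* at 34.1 ± 2.57. No 2 neighbors in this order down to *akt-1* overlapped between wt libraries.

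The kinase and adaptor genes further down had lower values. *pdk-1* (15.7 ± 4.51 FPKM) and *aap-1* (14.5 ± 0.969) overlapped each other in wt, and so did *age-1* (4.53 ± 0.392), *sgk-1* (3.63 ± 0.881), *akt-2* (3.01 ± 0.436) and *ist-1* (2.56 ± 0.567), each with the next. The order of the low genes differed between strains. In *gas-1* mutants *sgk-1* stood above *akt-2*, *age-1* and *ist-1* without overlap. In double mutants *akt-2*, *sgk-1* and *ist-1* overlapped from one to the next and all of their libraries exceeded those of *age-1*, which was then the lowest of the 10, and *daf-16* overlapped *daf-2*.

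**Figure D1:**
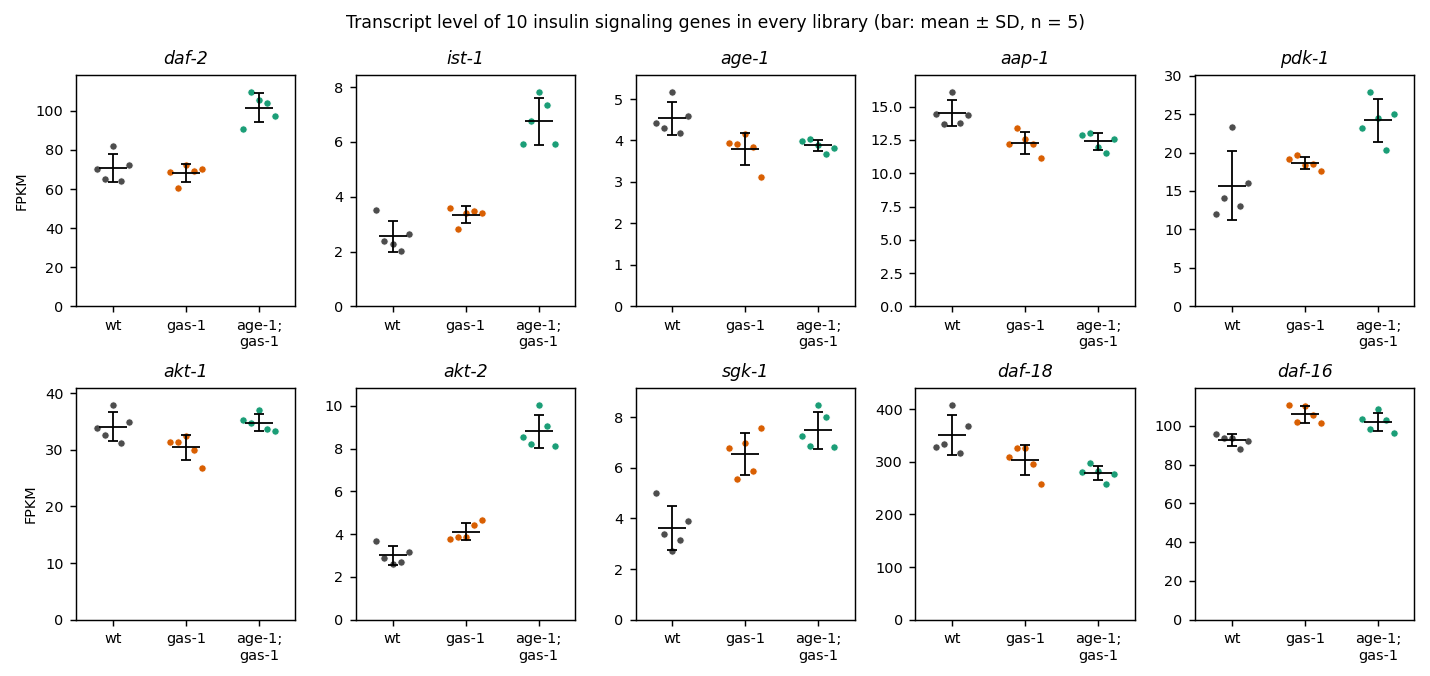
FPKM of each of the 10 insulin signaling genes (1 panel a gene, y axis from 0) in the 5 libraries of wt, *gas-1* and double mutants; points are libraries, and bars give the mean ± SD. *akt-2*, *ist-1* and *daf-2* stand higher in every double mutant library than in any other library, *sgk-1* is higher in both mutants than in wt, and for *pdk-1* the highest wt library lies above all *gas-1* libraries.

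The main comparison for reduced IIS sets double mutants against *gas-1* mutants. Of the 10 genes, 4 were called at 5% FDR (limma, adjusted over all tested genes) against a background of 33% of tested genes. All 4 rose, against a background of 13.5%, namely *akt-2*, *ist-1*, *daf-2* and *akt-1*. None fell in that fit, against a background of 19.5%, and 0 of the 10 fell at an unadjusted p under 0.05, whereas limma with array weights called 2 lower, *daf-18* (-0.16) and *daf-16* (-0.09). Every double mutant library exceeded every *gas-1* library for 5 of the 10 (background 10.6%), the same 4 and *pdk-1*, and for 0 of the 10 every library was below (background 15.7%, or 26.3% for either direction). The median over the 10 genes was 0.19 on the log2 scale, compared to -0.02 over all tested genes.

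*akt-2*, the gene of the second AKT kinase, rose most. It read 3.68, 2.89, 2.58, 2.71 and 3.18 FPKM in wt replicates 1 to 5. The *gas-1* libraries read 3.77, 3.86, 3.87, 4.43 and 4.65 FPKM. The double mutant libraries read 8.57, 8.23, 10.04, 9.04 and 8.14 FPKM. The 3 strains did not overlap, and the highest *gas-1* library was well short of the lowest double mutant library. The log2 change from *gas-1* to double mutants was 1.08 (SE 0.097, limma adjusted p = 2.2e-06), which is 2.11-fold on the scale of log2(FPKM + 0.1), a scale that understates changes of low genes. From wt to *gas-1* mutants it was 0.45 (SE 0.097, limma adjusted p = 0.0010), a call that was lost with quantile normalization (0.02, limma adjusted p = 0.87).

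*akt-1*, the other AKT gene, stood well above *akt-2* in every strain. Its mean was 34.1 FPKM in wt, compared to 30.4 ± 2.23 FPKM in *gas-1* mutants and 34.8 ± 1.504 FPKM in double mutants. *gas-1* libraries ranged from 26.8 to 32.5 FPKM and double mutant libraries from 33.3 to 37.1, so these strains did not overlap, whereas wt (31.1 to 37.9) overlapped both. The rise between the mutants was 0.20 (SE 0.060, limma adjusted p = 0.021), and it no longer passed without double mutant replicate 3 (limma adjusted p = 0.056). The fall from wt to *gas-1* mutants was -0.16 (SE 0.060, limma adjusted p = 0.025) and was lost in 7 of 29 alternatives, among them the fits without wt replicate 3, wt replicate 5 or *gas-1* replicate 5. double mutants and wt differed by 0.03 (95% interval -0.10 to 0.16, limma adjusted p = 0.64).

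The balance of the AKT transcripts differed between strains. Within each library *akt-2* stood at 0.0681 to 0.109 of the *akt-1* level in wt, at 0.119 to 0.174 in *gas-1* mutants and at 0.237 to 0.271 in double mutants, with means of 0.0887, 0.137 and 0.253. The 3 ranges do not overlap. A ratio within a library does not depend on how libraries are scaled, and it shows unequal change without telling which transcript moved. The pair was chosen with earlier results of these data known, and the share of all gene pairs that separate the strains was not computed.

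*ist-1*, which encodes an adaptor homologous to insulin receptor substrates, rose next to *akt-2*. It read 3.50, 2.38, 2.26, 2.04 and 2.65 FPKM in wt, and 3.61, 2.82, 3.41, 3.48 and 3.42 in *gas-1* mutants. In double mutants it read 5.92, 6.75, 7.83, 7.33 and 5.91 FPKM. The double mutants stood above all other libraries, while wt replicate 1 overlapped the *gas-1* libraries. The log2 change between the mutants was 0.99 (SE 0.129, limma adjusted p = 6.2e-05), or 1.98-fold. The change from wt to *gas-1* mutants, 0.39 (SE 0.129, limma adjusted p = 0.015), turned to -0.061 under quantile normalization and was 0.27 and no longer called after rescaling by the median of ratios.

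*daf-2*, the receptor gene, was higher in double mutants than in both other strains. It read 70.0, 65.1, 82.0, 63.9 and 72.1 FPKM in wt, and 68.9, 60.3, 72.4, 69.3 and 70.4 in *gas-1* mutants. In double mutants it read 90.9, 109.8, 105.7, 103.8 and 97.4 FPKM, above every library of the other strains. The change between the mutants was 0.57 (SE 0.072, limma adjusted p = 4.4e-05), or 1.49-fold, and that from wt to double mutants was 0.53 (limma adjusted p = 1.2e-05). wt and *gas-1* libraries overlapped, with a difference of -0.05 (95% interval -0.20 to 0.11, limma adjusted p = 0.58). After rescaling by the median of ratios this difference was -0.17 and was called lower (limma adjusted p = 0.036).

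*daf-2*, *ist-1* and *akt-2* passed the test between the mutants in each of 29 alternative analyses. Their log2 changes ranged there from 0.51 to 0.61, from 0.83 to 1.03 and from 0.94 to 1.14, respectively. None of these ranges reached 0.

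*pdk-1*, the kinase gene upstream of the AKT kinases, was higher in double mutants than in wt. It read 11.97, 14.1, 23.3, 13.03 and 16.1 FPKM in wt, where the high value belongs to replicate 3, a library low in sperm transcripts. *gas-1* libraries lay between 17.7 and 19.7 FPKM, and double mutant libraries read 23.1, 27.9, 24.5, 20.3 and 24.99. Every double mutant library exceeded every *gas-1* library. The change between the mutants was 0.36 (SE 0.141, 95% interval 0.06 to 0.66, limma adjusted p = 0.062). It passed the test in 8 of 29 alternatives, among them the fits without the 4 libraries low in sperm transcripts and without wt replicate 1 or 3 or double mutant replicate 4. The change from wt to double mutants was 0.65 (limma adjusted p = 0.00070) and was called in all 29 alternatives.

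*sgk-1*, the gene of a kinase related to AKT, was higher than in wt in both mutants. It read 5.01, 3.38, 2.72, 3.13 and 3.88 FPKM in wt, and 6.76, 5.55, 6.96, 5.87 and 7.58 in *gas-1* mutants. double mutant libraries lay between 6.80 and 8.47 FPKM. All libraries of both mutants exceeded those of wt, and the mutants overlapped each other. The change from wt was 0.86 (SE 0.138, limma adjusted p = 8.6e-05) in *gas-1* and 1.05 (limma adjusted p = 8.2e-06) in double mutants, and both calls held in all 29 alternatives. The mutants differed by 0.19 (95% interval -0.10 to 0.49, limma adjusted p = 0.31).

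**Figure D2:**
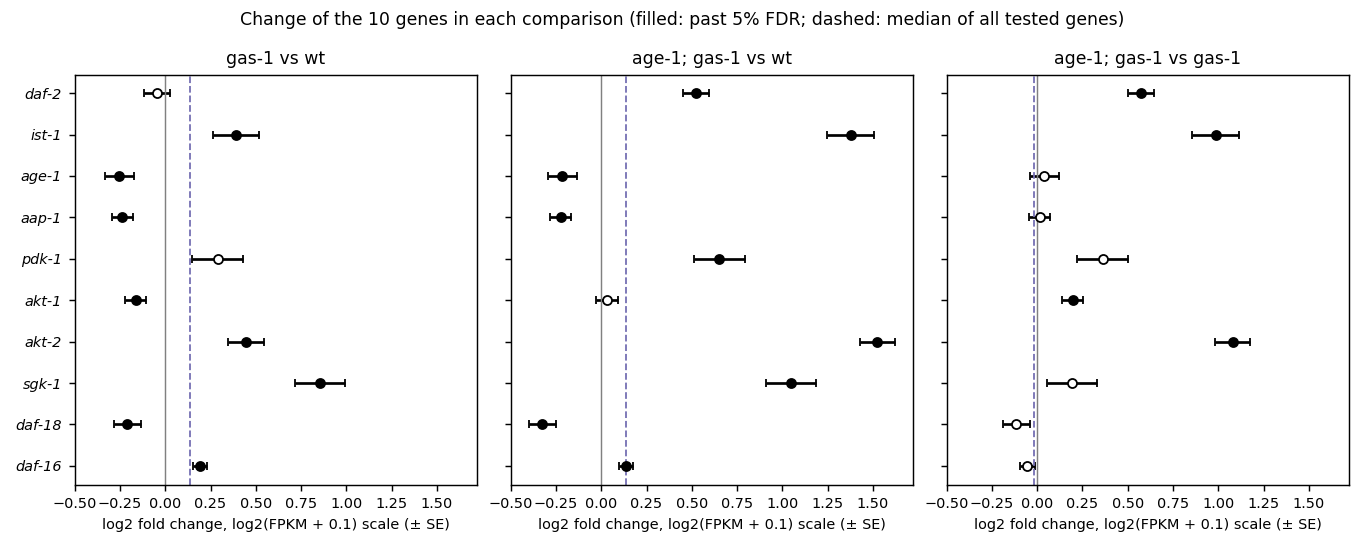
Log2 fold change (x axis, log2(FPKM + 0.1) scale, ± SE) of the 10 genes in the 3 comparisons; filled points passed 5% FDR, and the dashed line marks the median of all tested genes (0.14, 0.14 and -0.02). *akt-2* and *ist-1* lie farthest to the right between the mutants; *daf-16* lost its calls against wt after rescaling by the median of ratios, and *ist-1* in *gas-1* mutants turned to -0.061 under quantile normalization.

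Compared to wt, 8 of the 10 genes were called in *gas-1* mutants, against a background of 68.6% of tested genes. *sgk-1*, *akt-2*, *ist-1* and *daf-16* were higher (4 of 10, background 44%, and 2 of 10 after rescaling by the median of ratios or with quantile normalization), and *age-1*, *aap-1*, *akt-1* and *daf-18* were lower (4 of 10, background 24.6%, and 2 of 10 without wt replicate 3, wt replicate 5 or *gas-1* replicate 5). Libraries of the strains did not overlap for 5 of the 10 (background 50.5%), with 3 above wt (background 31.7%) and 2 below (background 18.8%). In double mutants 9 of the 10 were called (background 75.7%), 6 higher (background 44.5%) and 3 lower (background 31.2%), and 8 did not overlap (background 62.2%), 5 of them above wt (background 35.2%) and 3 below (background 27%). The shares called in either direction are not far from those of all genes. Both comparisons use the same wt libraries, so their values stand side by side and their likeness is not a result.

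The genes of the lipid kinase and of its opposing phosphatase were lower in both mutants than in wt. *age-1*, the mutated gene of the double mutants, read 4.41, 4.29, 5.18, 4.18 and 4.60 FPKM in wt, and 3.95, 3.90, 4.15, 3.84 and 3.12 in *gas-1* mutants. In double mutants it read 3.98, 4.03, 3.90, 3.69 and 3.82 FPKM. All wt libraries lay above those of both mutants, the lowest by a small margin, and the mutants overlapped. The change was -0.25 (SE 0.079, limma adjusted p = 0.011) in *gas-1* and -0.21 (limma adjusted p = 0.024) in double mutants, and the mutants differed by 0.04 (95% interval -0.13 to 0.21, limma adjusted p = 0.76). The call in double mutants was lost without wt replicate 3, without double mutant replicate 4 and without the 4 libraries low in sperm transcripts. Over the alternatives that tested *age-1*, the change ranged from -0.65 to -0.14 in *gas-1* and from -0.70 to -0.16 in double mutants.

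*aap-1*, the adaptor of the same kinase, ranged from 13.7 to 16.1 FPKM in wt, from 11.1 to 13.4 in *gas-1* mutants and from 11.5 to 13.02 in double mutants. Neither mutant reached the wt range. The changes were -0.24 (limma adjusted p = 0.0024) and -0.22 (limma adjusted p = 0.0029), and both were called in all 29 alternatives. They ranged there from -0.44 to -0.19 and from -0.45 to -0.17, respectively. Between the mutants the difference was 0.01 (95% interval -0.11 to 0.14). Within a library *age-1* stood at 0.280 to 0.331 of *aap-1* over all 15 libraries, with means of 0.312, 0.308 and 0.314 in the 3 strains.

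*daf-18* ranged from 316 to 408 FPKM in wt, from 258 to 326 in *gas-1* mutants and from 259 to 297 in double mutants. wt overlapped *gas-1* and not double mutants. The changes from wt were -0.21 (SE 0.075, limma adjusted p = 0.023) and -0.32 (limma adjusted p = 0.0012). The first was lost without wt replicate 3, wt replicate 5 or *gas-1* replicate 5, and the second was called in all 29 alternatives. The mutants differed by -0.11 (95% interval -0.28 to 0.05, limma adjusted p = 0.27). Set against *daf-18*, *age-1* stood at 0.0136 or more in every double mutant library and at 0.0134 or less in every other library. This pair, too, was chosen with earlier results of these data known.

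*daf-16*, the gene of the forkhead factor, was slightly higher in both mutants than in wt. It ranged from 88.1 to 95.7 FPKM in wt, from 101 to 111 in *gas-1* mutants and from 96.6 to 109 in double mutants. Both mutants stood above wt, and they overlapped each other. The log2 changes of 0.19 (limma adjusted p = 0.00063) and 0.14 (limma adjusted p = 0.0054) compare to a median of 0.14 over all genes, of 0.01 and -0.04 over genes that reached 5 FPKM, and of 0.05 and 0.03 over autosomal genes, and both calls were lost after rescaling by the median of ratios (0.07 and 0.02). The mutants differed by -0.05 (95% interval -0.14 to 0.03). Within a library the *daf-2* level was 0.694 to 0.875 of *daf-16* in wt, 0.593 to 0.694 in *gas-1* mutants and 0.880 to 1.12 in double mutants.

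**Figure D3:**
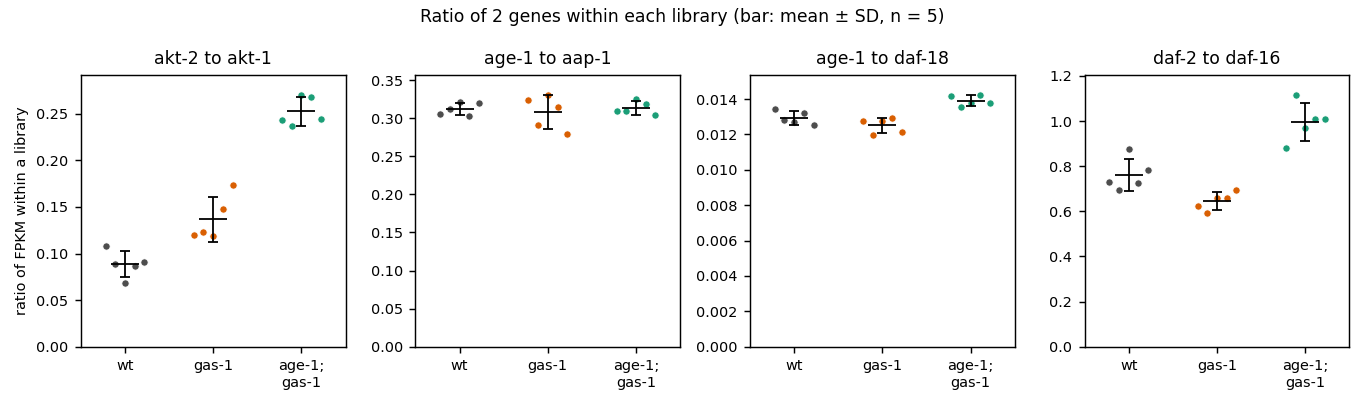
Ratio of the FPKM of 2 genes within each library (y axis from 0) in wt, *gas-1* and double mutants; points are libraries, and bars give the mean ± SD. The ratio of *akt-2* to *akt-1* separates all 3 strains (means 0.0887, 0.137 and 0.253), and that of *age-1* to *aap-1* overlaps in all of them. The pairs were chosen with earlier results of these data known.

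Among libraries of the same strain several of the 10 genes fell into groups that moved together. Over the 15 libraries, as deviations from the strain means on the log2 scale, *age-1* correlated with *daf-18* (Pearson r = 0.94), *akt-1* (0.92) and *aap-1* (0.83). *ist-1* correlated with *sgk-1* (0.84) and *akt-2* (0.78), and *akt-2* with *sgk-1* (0.82). *pdk-1* and *sgk-1* had the lowest of the 45 correlations, -0.64. *daf-2* reached at most 0.55, with *pdk-1*, and *daf-16* stood at 0.62 with *akt-1* and at 0.61 with *ist-1*. These values describe 15 libraries, and depth and tissue content are shared by all genes of a library. Tested genes outside the pathway reached 0.95 to 0.98 with *age-1* within strains, so such values are not particular to these 10. The share of all gene pairs with such values was not computed. Without the 4 libraries low in sperm transcripts the first group kept values of 0.94, 0.93 and 0.86 and the second 0.86, 0.77 and 0.74, whereas *pdk-1* and *sgk-1* came to -0.29. *pdk-1* correlated with *aap-1* and *age-1* at 0.69 and 0.64 over the 15 libraries, and at 0.29 and 0.40 without those 4. Without them *daf-16* reached 0.85 with *akt-1*, and *daf-2* reached 0.73 with *ist-1*.

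**Figure D4:**
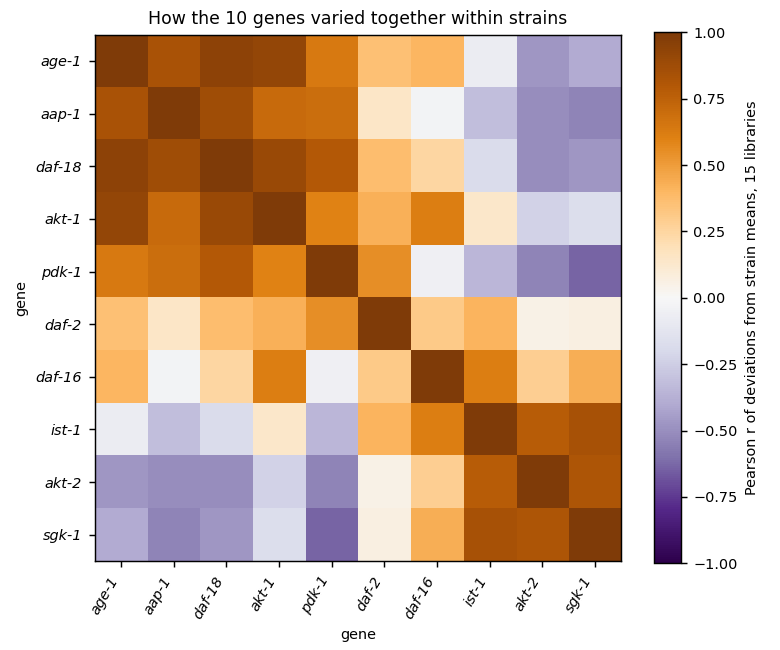
Pearson r of each pair of the 10 genes (both axes), computed on deviations from the strain means over 15 libraries; the color scale runs from -1 to 1. *age-1*, *aap-1*, *daf-18*, *akt-1* and *pdk-1* form a block of positive values, in which *pdk-1* with *aap-1* falls from 0.69 to 0.29 without the 4 libraries low in sperm transcripts, *ist-1*, *akt-2* and *sgk-1* another, and *pdk-1* with *sgk-1* gives the lowest value (-0.64).

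The members on X and on autosomes are set here beside other genes of those chromosomes. All 4 genes on X had positive changes from wt in both mutants, of 0.29 to 0.86 in *gas-1* and 0.65 to 1.52 in double mutants, except that *ist-1* turned to -0.061 in *gas-1* mutants under quantile normalization. *pdk-1* was the X-linked member not called in *gas-1* mutants (limma adjusted p = 0.080). The 6 autosomal members went both ways: *age-1*, *aap-1* and *daf-18* were lower in both mutants, *daf-16* was higher in both, and *daf-2* was higher in double mutants. X-linked genes are known to be little transcribed in the germline. Of 1626 tested X-linked genes, 69.6% were higher and 5.90% lower in *gas-1* mutants than in wt (median 0.46), compared to 39.7% and 27.7% of 9933 autosomal genes (median 0.05). In double mutants compared to wt the shares were 72.9% and 5.97% on X (median 0.57) and 39.8% and 35.4% on autosomes (median 0.03). Between the mutants 19.2% of X-linked genes were higher and 5.66% lower (median 0.08), compared to 12.5% and 21.9% of autosomal genes (median -0.04). There *akt-2* and *ist-1* rose by 1.08 and 0.99, while *pdk-1* (0.36) and *sgk-1* (0.19) did not pass the test.

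Several lists of tissue markers differed between the strains as well. Their counts are to be read against the background of all tested genes at 5% FDR. Against wt, 44% of tested genes were called higher and 24.6% lower for *gas-1* mutants. For double mutants against wt these shares were 44.5% and 31.2%. The shares from *gas-1* to double mutants were 13.5% and 19.5%. Against wt, 2 of 5 body wall muscle markers higher, or 3 of 10 oocyte and eggshell markers lower, is not far from the background. Of 9 germline markers, 6 fell in *gas-1* and 8 in double mutants compared to wt, and 6 fell between the mutants; their summed FPKM was 3912 to 4339 in wt, 2825 to 3312 in *gas-1* mutants and 2489 to 2664 in double mutant libraries. All 7 neuronal markers rose in both mutants compared to wt, and between the mutants 0 of 7 passed in limma and 2 rose at an unadjusted p under 0.05, with sums of 102 to 113, 131 to 145 and 136 to 159 FPKM. Of 5 intestinal markers, 4 rose in each mutant compared to wt, and between the mutants 2 rose and 1 fell. Of 10 oocyte and eggshell markers, 3 fell in *gas-1* mutants, and 2 rose and 8 fell in double mutants compared to wt. Between the mutants 2 of these markers rose and 7 fell (list median -0.27). Of 5 hypodermal markers, 3 rose and 1 fell in each mutant compared to wt (medians 2.78 and 1.83). Among those that rose was the larval collagen gene *dpy-7*, at means of 1.31 FPKM in wt, 8.74 in *gas-1* mutants and 13.1 in double mutants. The others that rose, *rol-6* and *bli-1*, had wt means of 0.377 and 0.275 FPKM. All 3 passed the filter only with mutant libraries, as *dpy-7* was also under 1 FPKM in wt replicates 1, 2 and 4. Their differences from wt, and the list medians, therefore come in part with the filter. Of 5 body wall muscle markers 2 rose in each mutant compared to wt, and of 4 pharyngeal markers tested with limma 0 passed in any comparison, also at an unadjusted p under 0.05. All germline, neuronal and intestinal markers were above 0 in every library. In whole animals fewer cells of a type and less RNA per cell cannot be told apart, and the part of tissue content in the changes of the 10 genes was not tested.

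**Figure D5:**
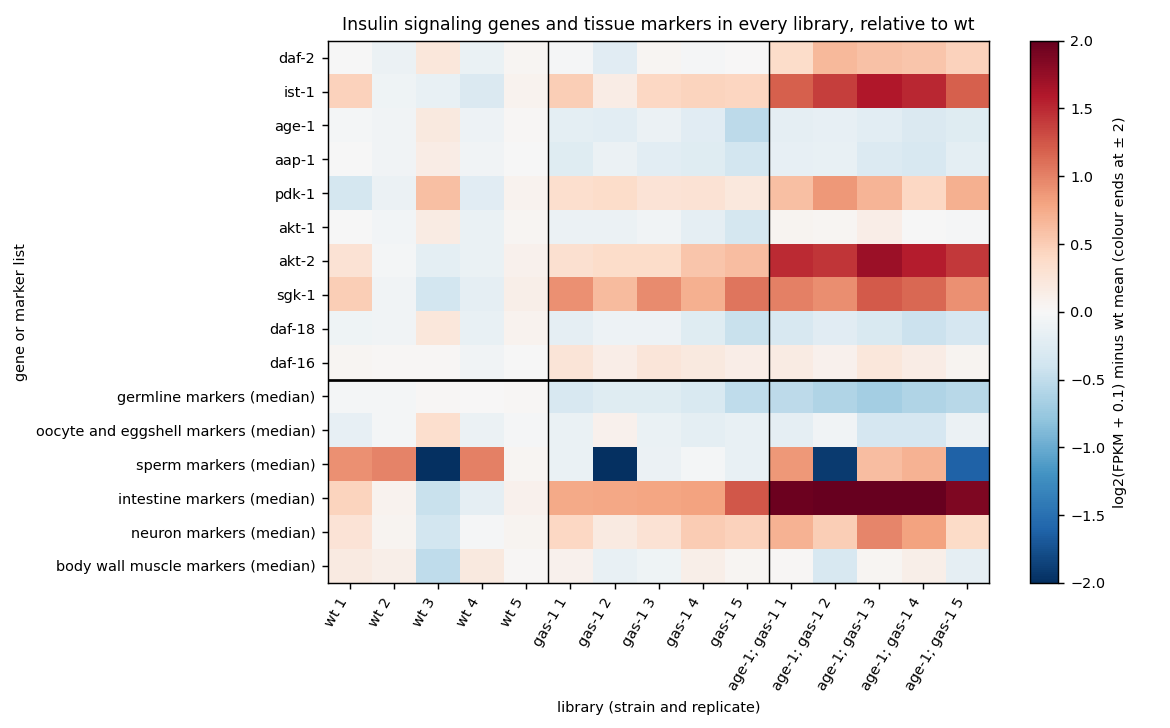
Log2(FPKM + 0.1) minus the wt mean for the 10 genes (upper rows) and for the median of 6 marker lists (lower rows) in each library; colors end at ± 2. *akt-2*, *ist-1*, *sgk-1* and the medians of the intestinal and neuronal lists are high in mutant libraries, and that of the germline list is low there. The intestinal row is a median of 5 genes, so 1 gene sets it in each library. The list's median change from wt to double mutants was 0.91, with *act-5* at -0.22 and not called (limma adjusted p = 0.16). The 4 libraries low in sperm transcripts stand out in the sperm row.

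Genes whose levels followed the members most closely were named by the highest Pearson r over the 15 libraries among all tested genes. For *akt-2* these were *ttr-48*, *npa-1* and *alh-12* (r = 0.99, 0.99 and 0.98, and 0.82, 0.83 and 0.79 within strains). For *daf-2* they were *W01A11.1*, *Y110A2AL.3* and *F21C10.10* (0.97, 0.95 and 0.95). For *daf-16* they were *ptr-3*, *B0454.6* and *gtl-2* (0.96 each). They were picked as the highest of 11648, so high values are built in.

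Other genes of the pathway were described from 4 lists. Of 10 regulators of the kinases only 4 passed the filter, too few to set a count against a share of all genes. Between the mutants 2 fell (background 19.5%) and 0 rose (background 13.5%) in limma, with 0 higher at an unadjusted p under 0.05. Those that fell were the phosphatase subunits *paa-1* (-0.20, limma adjusted p = 0.0095) and *let-92* (-0.14, limma adjusted p = 0.035), with a list median of -0.08. Of 19 factors that act on or with DAF-16, 18 were tested; 6 fell (background 19.5%) and 0 rose in limma between the mutants (median -0.03), with 1 higher at an unadjusted p under 0.05. Among those that fell were the 14-3-3 gene *par-5* (-0.23, limma adjusted p = 0.00027), the arginine methyltransferase gene *prmt-1* (-0.22, limma adjusted p = 0.0014), the HSF-1 binding partner gene *ddl-1* (-0.31, limma adjusted p = 0.0038) and the sirtuin gene *sir-2.1* (-0.16, limma adjusted p = 0.0051). Compared to wt, 5 of the 18 rose and 10 fell in each mutant, against backgrounds of 44% and 24.6% in *gas-1* mutants and 44.5% and 31.2% in double mutants.

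The list of 9 TOR genes holds genes of the TOR complexes, of GTPases and of the S6 kinase. Of these, *rict-1*, the RICTOR gene of the complex that acts on SGK-1, rose between the mutants (0.27, limma adjusted p = 0.014). The GTPase gene *raga-1* fell (-0.12, limma adjusted p = 0.037) and was the only gene of the list called lower there. The list had 0 lower in 13 of 29 alternatives. With 1 of 9 higher and 1 of 9 lower, against backgrounds of 13.5% and 19.5%, neither count stood out from all genes. Compared to wt, 7 of the 9 fell in each mutant (background 24.6% in *gas-1* mutants and 31.2% in double mutants), and 1, *rict-1*, rose in double mutants (background 44.5%).

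Of 10 genes known as targets of DAF-16, 8 were tested. All 8 rose between the mutants (list median 2.105, background 13.5% of tested genes) and from wt to double mutants (median 2.16, background 44.5%), while in *gas-1* mutants 5 rose (background 44%) and 2 fell (background 24.6%), with a median of 0.53. The superoxide dismutase gene *sod-3* had means of 0.224 FPKM in wt, 0.896 FPKM in *gas-1* mutants and 3.96 FPKM in double mutants, and it passed the filter only through the double mutants, so its difference comes in part with the filter. The metallothionein gene *mtl-1* had means of 0.257, 1.92 and 9.08 FPKM and *lea-1*, a gene of a desiccation-tolerance protein, 93.5, 140.2 and 347 FPKM. *mtl-1* passed the filter only through mutant libraries, so its difference from wt comes in part with the filter. The counts and medians of the list include *sod-3* and *mtl-1*, so they too come in part with the filter. The list was chosen with earlier results of these data known. The desaturase gene *fat-5* went from 5.47 FPKM in wt down to 1.25 in *gas-1* and up to 8.67 in double mutants. The *daf-16* transcript itself differed by -0.05 between the mutants, which did not pass the test.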

How the data were processed

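The data are 1 table of FPKM per gene for each of 15 libraries of whole nematodes, grouped by the sample titles into 3 strains with 5 libraries each, which the paper calls biological replicates. A stranded mRNA kit was used on about 100 ng of total RNA, and 1 end of 50 bp was read. The authors deposited FPKM; in the submitters' processing notes stand STAR 2.4.0h, Cufflinks 2.1.1, Cuffdiff, CASAVA 1.8.2 and FastQC 0.10.1 without a role for each. Aligning, assigning and scaling of reads were done before deposit and were not repeated, so an error in any of them carries into every value. The genome build and annotation were not given in the sources used here. Read totals are unknown, so no counting interval was computed.

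Genes that reached 1 FPKM in 5 or more libraries were kept. A single limma model (version 3.58.1, R 4.3.3) with a mean-variance trend was fitted to log2(FPKM + 0.1) of all 3 strains. Benjamini-Hochberg adjustment ran over 11648 genes within each comparison, at 5% FDR. p-values measure the spread between these libraries only. The fit was tested on simulated data. The members, lists and ratios were chosen with earlier results of these data known. Named genes are the 10 members, *gas-1*, up to 4 genes per list with the smallest adjusted p below 5% FDR between the mutants, and the 3 genes with the highest correlation to *akt-2*, *daf-2* and *daf-16*. Named outside this rule are *col-19*, *vit-2*, *dpy-7*, *rol-6*, *bli-1*, *act-5* and genes that share exon bases with members. The 29 alternatives covered the pseudocount, filter, rescaling, limma settings, the replicate numbers as a block, 1% FDR, leaving out each library, and, chosen after seeing the data, leaving out the 4 libraries low in sperm transcripts.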

Additional observations from a re-analysis of the deposited data

Results flagged for a closer look

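Each strain's 5 libraries were examined for 1 library far from the rest, by Dixon's test, in 45 groups of values; by chance about 1 in 20 groups is marked, and 3 were. In *gas-1* replicate 2, *daf-2* read 60.3 FPKM, compared to 68.9 to 72.4 in the other *gas-1* libraries. In the same library *ist-1* read 2.82 FPKM, compared to 3.41 to 3.61. *gas-1* mRNA read 95.7 FPKM in wt replicate 3, compared to 116 to 123 in the other wt libraries. Both libraries are among the 4 low in sperm transcripts.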

How the results depend on the processing

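Higher and lower calls compared to wt depended on scaling. In *gas-1* mutants 5120 genes were higher and 2866 lower; these counts were 4245 and 4038 after rescaling by the median of ratios, 3057 and 4423 with quantile normalization, and 3098 higher with the filter at 5 FPKM. The members called higher there were 2 under either rescaling, and *ist-1* turned to -0.061 with quantile normalization; those called lower were 1 at 1% FDR and 2 to 4 when 1 library was left out, with 2 for wt replicate 3, wt replicate 5 or *gas-1* replicate 5. In double mutants compared to wt, 5183 genes were higher and 3633 lower, with 3359 and 4999 under quantile normalization, 4577 and 4344 after rescaling by the median of ratios, 7993 higher without a filter and 3079 higher at 5 FPKM. The median change of all genes from wt was 0.01 and 0.02 after rescaling by the median of ratios and -0.08 and -0.12 with quantile normalization, and 0.01 and -0.04 with the filter at 5 FPKM. Between the mutants 1572 genes were higher and 2276 lower; array weights gave 2381 and 3595, with 2 members lower, 1% FDR gave 950 and 1420, and upper-quartile rescaling gave 1905 and 1887. Leaving out 1 library gave 3 to 5 members higher and 0 lower between the mutants, 6 higher and 2 to 3 lower in double mutants compared to wt, and 4 to 5 higher in *gas-1* mutants. Without the 4 libraries low in sperm transcripts, 5 members were higher and 3 lower, 6 higher and 2 lower, and 5 higher and 0 lower in the 3 comparisons, in the order *gas-1* and double mutants against wt and between the mutants.

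The replicate numbers did not pair the libraries: the r of deviations of libraries with the same number exceeded 0.1 in 10 of 15 pairs and ranged from -0.76 to 0.79, and the best match had the same number in 2 of 15. With the replicate block, 4 members were higher and 4 lower, 6 and 3, and 4 and 0, with 5044 and 2823, 5133 and 3601, and 1488 and 2154 genes. *age-1* fell below the filter at 5 FPKM and was not tested there. The causes of these shifts were not tested. Depth is unknown, so the precision of the low genes *akt-2*, *ist-1*, *sgk-1* and *age-1* rests on 5 libraries a strain alone.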
